A study of Mus musculus with 8 samples.

Results

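Lines grown from a metastatic mouse lung adenocarcinoma (Tmet) were compared, across all measured genes, with a line from a tumour that had not metastasised and in which Nkx2-1 alone was knocked down (shNkx2-1). The libraries were chosen by their labels, 2 of Tmet and 2 of shNkx2-1, which are 4 of the 8 libraries of the series. The labels give every line the same genotype, which includes the loss of Trp53 (Trp53-/-). Both shNkx2-1 libraries come from the Tnonmet line after viral delivery of an shRNA against Nkx2-1, and no shRNA or virus is named for Tmet. The other 4 libraries, used here only to place a level and to share the estimate of spread, are the Tnonmet line with an shRNA against luciferase (shControl, 2 libraries) and with shRNAs against Nkx2-1, Foxa2 and Cdx2 together (triple knockdown, 2 libraries). Polyadenylated RNA of cultured cells was sequenced and given as estimated counts per gene. As Tmet and Tnonmet came from different tumours, metastatic origin, tumour of origin and viral infection cannot be told apart in this comparison. Nothing in the labels says that the duplicates are separate cultures, so the p-values measure only the spread between these libraries, which may be technical.

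Nkx2-1 is a homeobox transcription factor that specifies the lung epithelium and keeps lung adenocarcinoma cells in a lung-like state. Foxa1, Foxa2 and Foxa3 are forkhead factors shared by lung, liver and gut endoderm, Cdx2 is a homeobox factor of the intestine, and Hnf4a is a nuclear receptor of liver and gut epithelium. Loss of Nkx2-1 in such tumours is known for the appearance of gastric and hepatic genes, and a further loss of epithelial identity, often called an epithelial to mesenchymal transition (EMT), is known for lower E-cadherin and higher vimentin and matrix genes.

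The 4 libraries compared held 16203758 and 17599131 estimated counts (shNkx2-1) and 18093561 and 21044835 (Tmet). Levels are in CPM, counts scaled to a common library total after TMM factors, and 3 counts in a library equal 0.151 to 0.2 CPM over the series. The Tmet duplicates stood further apart than any other pair, with a median gap of 0.333 in log2 CPM between them, beside 0.162 for shNkx2-1 and 0.13 to 0.145 for the other pairs. Each call below is from edgeR's quasi-likelihood test over 13318 tested genes at a Benjamini-Hochberg adjusted p under 0.05, and log2 changes are Tmet minus shNkx2-1, with a standard error (SE). Of the tested genes 29.3% were called higher in Tmet (3905 genes) and 28.8% lower (3838 genes). The median log2 change over all tested genes was 0.005. Changes of more than 4-fold were called for 7.46% of the genes on the higher side and 9.09% on the lower side. With 58.1% of the tested genes called, a list of genes is described below by its counts and its median beside these shares. A gene with counts in only 1 of the groups entered the test through that group, so counts are over tested members and are not evidence on a list as a whole.

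Of the 3 factors targeted in the study, each was higher in the single knockdown than in Tmet. Nkx2-1 itself was at 76.4 and 68 CPM in shControl, 37.7 and 44.8 CPM in shNkx2-1, and 0.219 and 0.353 CPM in Tmet. The single knockdown was below shControl (log2 change -0.81, adjusted p = 0.032) but kept Nkx2-1 transcripts, and the Tmet libraries were far below them (log2 change -7.13 ± 0.24, SE, adjusted p = 4.76e-07 by edgeR's quasi-likelihood test). Cdx2 was at 175 and 186 CPM in shNkx2-1 and at 0.383 and 0.353 CPM in Tmet, a log2 change of -8.91 ± 0.24. Foxa2 was at 49.2 and 41.6 CPM against 1.2 and 1.36 CPM, a log2 change of -5.14 ± 0.19. Neither group overlapped the other for any of these genes, which was so for 77.1% of all tested genes. In the triple knockdown Cdx2 was at 9.41 and 6.8 CPM and Foxa2 at 34.1 and 28.2 CPM, both between the levels of the single knockdown and Tmet. The difference between the triple and the single knockdown was called for Cdx2 (adjusted p = 6.9e-06) and for Foxa2 (adjusted p = 0.035), and not for Nkx2-1 (adjusted p = 0.4), all by edgeR's quasi-likelihood test.

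Foxa1 differed less from the single knockdown, with 106 and 90.1 CPM in shNkx2-1 and 41.5 and 38.1 CPM in Tmet (log2 change -1.30 ± 0.13). The triple knockdown, at 33.9 and 31.1 CPM, lay slightly below Tmet, and the gap between those groups was not called (log2 difference 0.29, adjusted p = 0.091 by edgeR's quasi-likelihood test). Foxa3 had 0.0608 and 0.0563 CPM in shNkx2-1 and none in Tmet, which is below the floor in both. Hnf4a, which organises hepatic and gut gene expression, was at 381 and 346 CPM in shNkx2-1 against 0.547 and 0.907 CPM in Tmet (log2 change -8.94 ± 0.22). Hnf4a was thus clearly present in the knockdown line and under 1 CPM in Tmet.

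Of 36 regulators of lung, liver and gut lineage, 29 were tested, 22 fell and 2 rose, with a median log2 change of -3.77. Gata6, a zinc finger factor of endoderm, was at 66.5 and 63.2 CPM in shNkx2-1 and at 0.273 and 0.151 CPM in Tmet. Pdx1, a homeobox factor of pancreas and duodenum, had 1760 counts over the 2 shNkx2-1 libraries and 2 counts over the Tmet libraries. That is a 981-fold ratio, with an exact counting interval of 271 to 8110 that covers counting error only. Elf3, an ETS factor of epithelia, was at 45.3 and 38 CPM against 0.219 and 0.101 CPM, and the grainyhead factor Grhl2 at 8.69 and 6.2 CPM against 0.383 and 0.202 CPM. Onecut2, a liver and gut factor, fell from 559 and 770 CPM to 47.2 and 58.4 CPM and so kept a measurable level. The 2 members that rose were Sox2, a factor of foregut, airway and stem cells, and Hhex, a homeobox factor of early endoderm. Sox2 was at 0.425 and 0.225 CPM in shNkx2-1 and at 109 and 121 CPM in Tmet (log2 change 8.45 ± 0.37, adjusted p = 1.36e-06 by edgeR's quasi-likelihood test), and no Tnonmet library of any group was above 0.425 CPM. Hhex went from 1.88 and 1.69 CPM to 8.42 and 8.52 CPM. Sox9, a factor of the lung bud tip, was not called, with 20.4 and 13.9 CPM against 15.5 and 9.37 CPM.

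**Figure D1:**
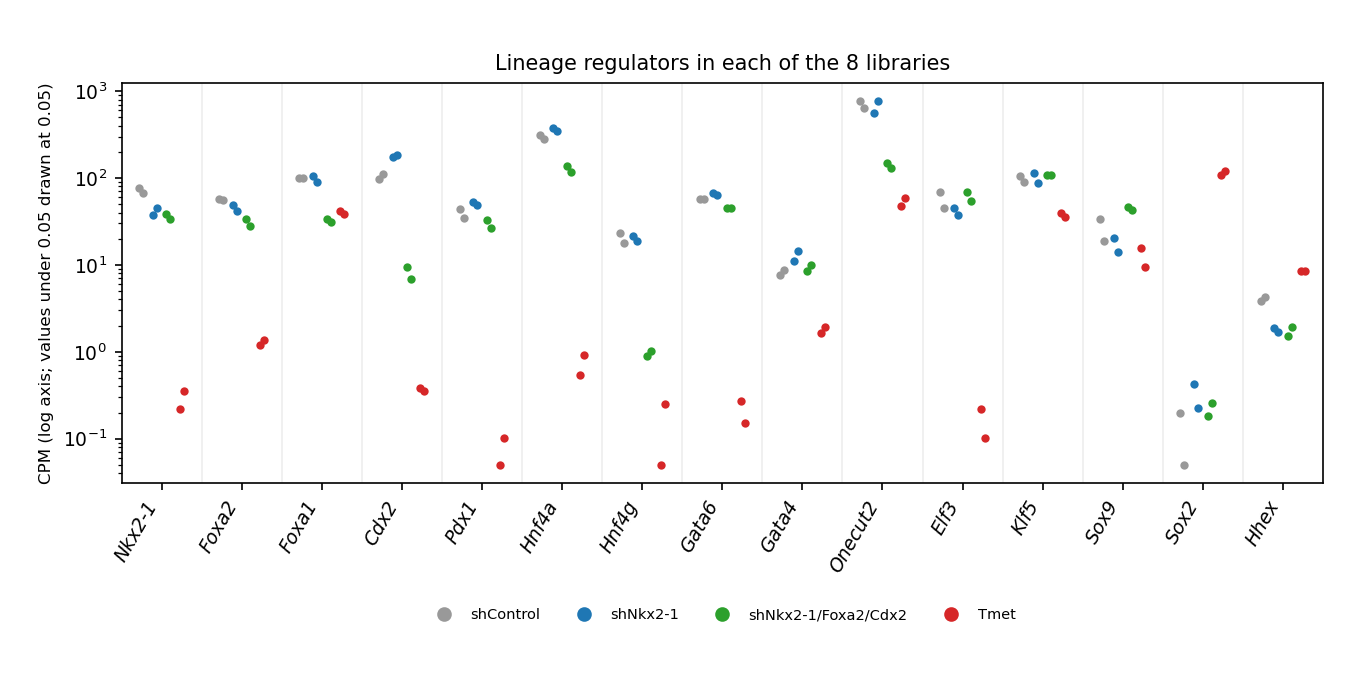
CPM on a log axis of 15 lineage regulators in all 8 libraries, 1 point a library, coloured by group. Tmet lies below all Tnonmet libraries for Nkx2-1, Foxa2, Cdx2, Hnf4a and Gata6, close to the triple knockdown for Foxa1, and above all other libraries for Sox2 and Hhex.

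Genes of the stomach and intestine were mostly lower in Tmet. Of 38 listed, 36 were in the table, 21 were tested, 17 fell and 1 rose, with a median log2 change of -7.60, or -5.85 when genes without a count in Tmet are set at their bound. Lgals4, a gut galectin, was at 716 and 771 CPM in shNkx2-1 and at 1.64 and 1.97 CPM in Tmet (log2 change -8.68 ± 0.15, adjusted p = 7.07e-08 by edgeR's quasi-likelihood test). Vil1, which bundles actin in the brush border, was at 72.7 and 79.3 CPM against 0.383 and 0.302 CPM. Cldn18, a claudin of stomach and lung, was at 127 and 110 CPM against 0.437 and 0.756 CPM. In each of these genes the Tmet libraries were under 2 CPM and the groups did not overlap. The triple knockdown split this list: Lgals4 was at 40.6 and 38.4 CPM and Vil1 at 1.39 and 1.09 CPM there, lower than in the single knockdown (adjusted p = 2.2e-06 and 6.2e-06 by edgeR's quasi-likelihood test), while Cldn18 was at 189 and 193 CPM, higher than in the single knockdown (adjusted p = 0.0085). Over the list, the triple knockdown was called lower than the single knockdown for 16 tested members and higher for 1, beside 11.1% and 9.27% of all tested genes. The member that rose in Tmet was Anpep, an aminopeptidase of the gut surface that stromal cells also carry, with a log2 change of 2.91, and a second member was called higher without Tmet replicate 2.

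Liver and plasma protein genes were mostly lower too. Of 32 listed, 14 were tested, 8 fell and 3 rose, with a median log2 change of -5.93, or -4.38 with genes at their bound. Rbp4, which carries retinol in plasma, was at 213 and 233 CPM in shNkx2-1 and 2.95 and 1.31 CPM in Tmet. C4bp, a complement regulator, was at 21.9 and 30 CPM against 0 and 0.0504 CPM. Afp, the fetal liver albumin, went the other way, from 0.851 and 0.676 CPM to 32.8 and 28.4 CPM (log2 change 5.31 ± 0.48, adjusted p = 5.79e-05 by edgeR's quasi-likelihood test). Arg1 and C3 also rose, and stayed under 5 CPM in all 4 libraries. The call of Arg1 was lost without shNkx2-1 replicate 2 (adjusted p = 0.056), and its log2 change went from 4.63 to 6.97 without shNkx2-1 replicate 1. Albumin itself had at most 1 count in any of the 4.

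The surfactant genes, which define differentiated alveolar type 2 cells, were at or near no count on both sides, while other genes of the alveolar list were present. Among 20 alveolar genes, the surfactant genes Sftpa1 and Sftpd had no count in the 4 libraries, Sftpc had none in shNkx2-1 and 1 and 4 counts in Tmet, and Sftpb had 9 in each shNkx2-1 library and 4 in each Tmet library (adjusted p = 0.0507 by edgeR's quasi-likelihood test). The airway secretory gene Scgb1a1 was at or below 0.109 CPM. Of the 10 alveolar genes tested, 4 rose and 3 fell. Abca3, the lipid transporter of lamellar bodies, fell from 233 and 235 CPM to 84.4 and 58.3 CPM, and Cav1, the caveolin of alveolar type 1 and many other cells, rose from 199 and 180 CPM to 483 and 419 CPM. Of 14 airway genes 5 were tested, 3 fell and 1 rose, and the rise was not called without shNkx2-1 replicate 2. Aldh1a1, a retinaldehyde dehydrogenase, fell from 124 and 86.4 CPM to 0.601 and 0.958 CPM.

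Several of the large falls were of genes with no count or at most 3 counts in Tmet. Cst9, a cystatin, had 1443 counts over the shNkx2-1 libraries and 0 over Tmet, at least 536-fold lower in Tmet when a floor of 3 counts over the group is used. Ces2c, a carboxylesterase of gut and liver, was at least 268-fold lower, and Slc17a4, an anion carrier of the intestine, at least 232-fold lower. Dmbt1, a mucosal scavenger receptor, had 5856 counts against 3, a ratio of 2180 with a counting interval of 744 to 10600. For Cst9, Slc17a4 and Dmbt1 the triple knockdown was also at or below 2.11 CPM. Its difference from the single knockdown was called for each (adjusted p = 5.1e-05, 1.3e-04 and 4.6e-06 by edgeR's quasi-likelihood test).

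E-cadherin, encoded by Cdh1, is the adhesion protein that holds epithelial sheets together. Cdh1 was at 749 and 919 CPM in shNkx2-1 and at 3.17 and 3.33 CPM in Tmet (log2 change -8.00 ± 0.18, adjusted p = 1.3e-07 by edgeR's quasi-likelihood test). The triple knockdown, at 682 and 754 CPM, was not called different from the single knockdown (log2 difference -0.22 ± 0.12, adjusted p = 0.26). Epcam, another epithelial surface marker, was at or below 0.676 CPM in every library of the series and was not tested. Of 14 tested cadherin and desmosome genes, 10 fell and 4 rose, with a median log2 change of -1.17. Jup, the plakoglobin of junction plaques, fell from 328 and 316 CPM to 55.7 and 44.7 CPM, and Dsp, the desmosomal plaque protein, from 85.4 and 111 CPM to 56.2 and 39.9 CPM. Pkp1, a desmosomal plakophilin of stratified epithelia, rose from 2.13 and 1.63 CPM to 99.8 and 64.1 CPM, and Pkp3 rose with it from under 0.3 CPM to 4.87 and 2.57 CPM. Both plakophilins were also higher in the triple than in the single knockdown (adjusted p = 5.1e-04 and 9e-04 by edgeR's quasi-likelihood test).

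Of 20 tight junction genes tested, 14 fell and 1 rose, with a median log2 change of -2.33. The claudin Cldn2 was at 188 and 201 CPM in shNkx2-1 and at 0.328 and 0.756 CPM in Tmet, and Tjp3, a scaffold of the junction, at 7.9 and 12.3 CPM against 0.0547 and 0.0504 CPM. Tjp1, the more widely used scaffold, fell only from 355 and 412 CPM to 202 and 159 CPM. Cldn6, a claudin of embryonic epithelia, was the member that rose, from 7.29 and 10.9 CPM to 315 and 166 CPM (log2 change 4.72 ± 0.41). A second member was called higher without Tmet replicate 1. Cldn6 was higher in the triple knockdown as well, at 36.4 and 37.2 CPM (adjusted p = 0.0082 against the single knockdown by edgeR's quasi-likelihood test).

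Epithelial splicing regulators and surface genes fell in 15 of 17 tested members, with a median log2 change of -5.78. The single rise in the list was not called without shNkx2-1 replicate 1, shNkx2-1 replicate 2 or Tmet replicate 1. Esrp2, the splicing factor of epithelial isoforms, was at 51.7 and 47.7 CPM in shNkx2-1 and at 0.437 and 0.454 CPM in Tmet. Rbm47, an RNA-binding protein of endoderm, was at 98.4 and 90.5 CPM against 0.765 and 0.554 CPM, and the receptor Erbb3 at 65.4 and 62.4 CPM against 1.48 and 0.857 CPM. Lsr, a protein of tricellular junctions, was at 123 and 126 CPM against 0.984 and 0.907 CPM, and Spint2, an inhibitor of surface proteases, at 169 and 197 CPM against 2.57 and 1.36 CPM. Galnt3, which starts mucin-type glycosylation, had 597 counts against 1, and the polarity gene Crb3 139 counts against 2. These groups did not overlap for any of the genes, and the triple knockdown libraries all lay on the side of the single knockdown. Of the 17, the triple knockdown was called higher than the single knockdown for 4 and lower for 5, with a median log2 difference of -0.04, while Tmet was called lower than the triple knockdown for 14, beside 24.1% of all tested genes.

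The E-box letters CACCTG are known as the core bound by the EMT repressors of the Snail and Zeb families, and their presence was looked up in the promoters of genes that fell. Of 31 junction, splicing and surface genes that fell more than 4-fold, 21 had a promoter in the RefSeq table, and 12 of these (57.1%) held CACCTG on either strand between 250 bases before and 50 bases after the gene start. The share was 20% of all 27025 promoters in the table, 17.4% of those of tested genes, 28% of those of all genes that fell more than 4-fold and 19.8% of those of genes that rose more than 4-fold. The motif was picked after the values were seen and no test was made, and a match is a description and not a binding site. Cdh1 was not among the 21 promoters, and those of Jup, Cldn2, Cldn18 and Rbm47 held no match. 4 promoters with 3 or 4 matches are shown, because Crb3, Spint2, Lsr and Galnt3 each fell to under 3 CPM in Tmet and stayed in the triple knockdown. Another promoter with 3 matches is not shown. Capitals mark CACCTG or its reverse complement CAGGTG. They are RefSeq sequences of the build GRCm38.p6, 5′ to 3′ on the gene's strand, from chr17:57061951-57062250 (plus strand, Crb3), chr7:29281928-29282227 (minus strand, Spint2), chr7:30973420-30973719 (minus strand, Lsr) and chr2:66124744-66125043 (minus strand, Galnt3).
Crb3: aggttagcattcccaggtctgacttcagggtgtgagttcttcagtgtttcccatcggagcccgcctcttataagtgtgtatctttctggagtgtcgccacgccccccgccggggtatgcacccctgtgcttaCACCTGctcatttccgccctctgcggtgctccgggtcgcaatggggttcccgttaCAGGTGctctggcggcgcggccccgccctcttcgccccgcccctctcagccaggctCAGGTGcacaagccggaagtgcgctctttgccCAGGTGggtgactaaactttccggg
Spint2: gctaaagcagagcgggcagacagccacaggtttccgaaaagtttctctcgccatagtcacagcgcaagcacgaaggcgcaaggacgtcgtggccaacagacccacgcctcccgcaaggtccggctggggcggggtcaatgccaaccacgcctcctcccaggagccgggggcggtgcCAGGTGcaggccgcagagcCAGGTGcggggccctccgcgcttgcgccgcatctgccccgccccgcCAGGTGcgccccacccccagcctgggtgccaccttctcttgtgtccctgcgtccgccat
Lsr: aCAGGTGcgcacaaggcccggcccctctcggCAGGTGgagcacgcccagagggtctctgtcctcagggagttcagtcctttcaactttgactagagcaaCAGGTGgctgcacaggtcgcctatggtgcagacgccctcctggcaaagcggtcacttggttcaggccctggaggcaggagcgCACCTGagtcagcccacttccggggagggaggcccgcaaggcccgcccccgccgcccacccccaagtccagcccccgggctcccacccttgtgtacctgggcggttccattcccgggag
Galnt3: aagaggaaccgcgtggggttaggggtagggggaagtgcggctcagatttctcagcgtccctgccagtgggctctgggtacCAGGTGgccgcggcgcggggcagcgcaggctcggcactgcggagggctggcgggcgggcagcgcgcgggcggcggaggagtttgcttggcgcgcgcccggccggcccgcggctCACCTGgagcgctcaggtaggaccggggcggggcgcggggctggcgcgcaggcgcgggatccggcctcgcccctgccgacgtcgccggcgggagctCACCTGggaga

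For comparison, the letters TGTTTAC, the core of FOXA sites, were in 3.75% of the promoters of genes that fell more than 4-fold, in 1.39% of those that rose more than 4-fold, in 2.49% of those of tested genes and in 3.55% of all promoters. The NKX2 core CACTTNA was in 8.71%, 8.50%, 8.39% and 11.5% of the same sets. The AP-1 core TGANTCA was in 8.49%, 7.52%, 5.29% and 7.93%. All letters were searched on both strands, and no test was made.

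Keratins, the intermediate filaments of epithelia, moved in both directions, with 5 of 12 tested members lower and 5 higher. The simple epithelial keratin Krt7 fell from 166 and 129 CPM to 1.2 and 1.06 CPM. Krt19, another of that kind, fell from 1770 and 1700 CPM to 174 and 119 CPM. Krt8 fell from 3480 and 3100 CPM to 1310 and 777 CPM. Krt18, the partner of Krt8 in the filament, was at 1320 and 1090 CPM against 1140 and 538 CPM and was not called, although without Tmet replicate 1 its log2 change was -1.17 (adjusted p = 5.02e-05 by edgeR's quasi-likelihood test). Keratins of stratified or wounded epithelia went both ways, as Krt4, of stratified epithelia of the mouth and gullet, fell from 37 and 20 counts to none in Tmet. Krt6a, of wounded epidermis, had 1 count over the shNkx2-1 libraries and 1676 over Tmet, a ratio of 1500 with a counting interval of 269 to 59400. Krt14 rose from 0.729 and 0.338 CPM to 2.24 and 2.62 CPM, a call lost without shNkx2-1 replicate 2 (adjusted p = 0.0835). Krt16 rose from 0.122 and 0.225 CPM to 0.601 and 1.71 CPM, a call lost without shNkx2-1 replicate 1 (adjusted p = 0.0739) or Tmet replicate 2 (adjusted p = 0.0606). Krt14 and Krt16 thus stayed under 3 CPM in every one of the 4 libraries. Krt7 in the triple knockdown, at 1170 and 1110 CPM, was above the single knockdown (adjusted p = 2.1e-05 by edgeR's quasi-likelihood test), so that its Tmet level was further from the triple than from the single knockdown.

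**Figure D2:**
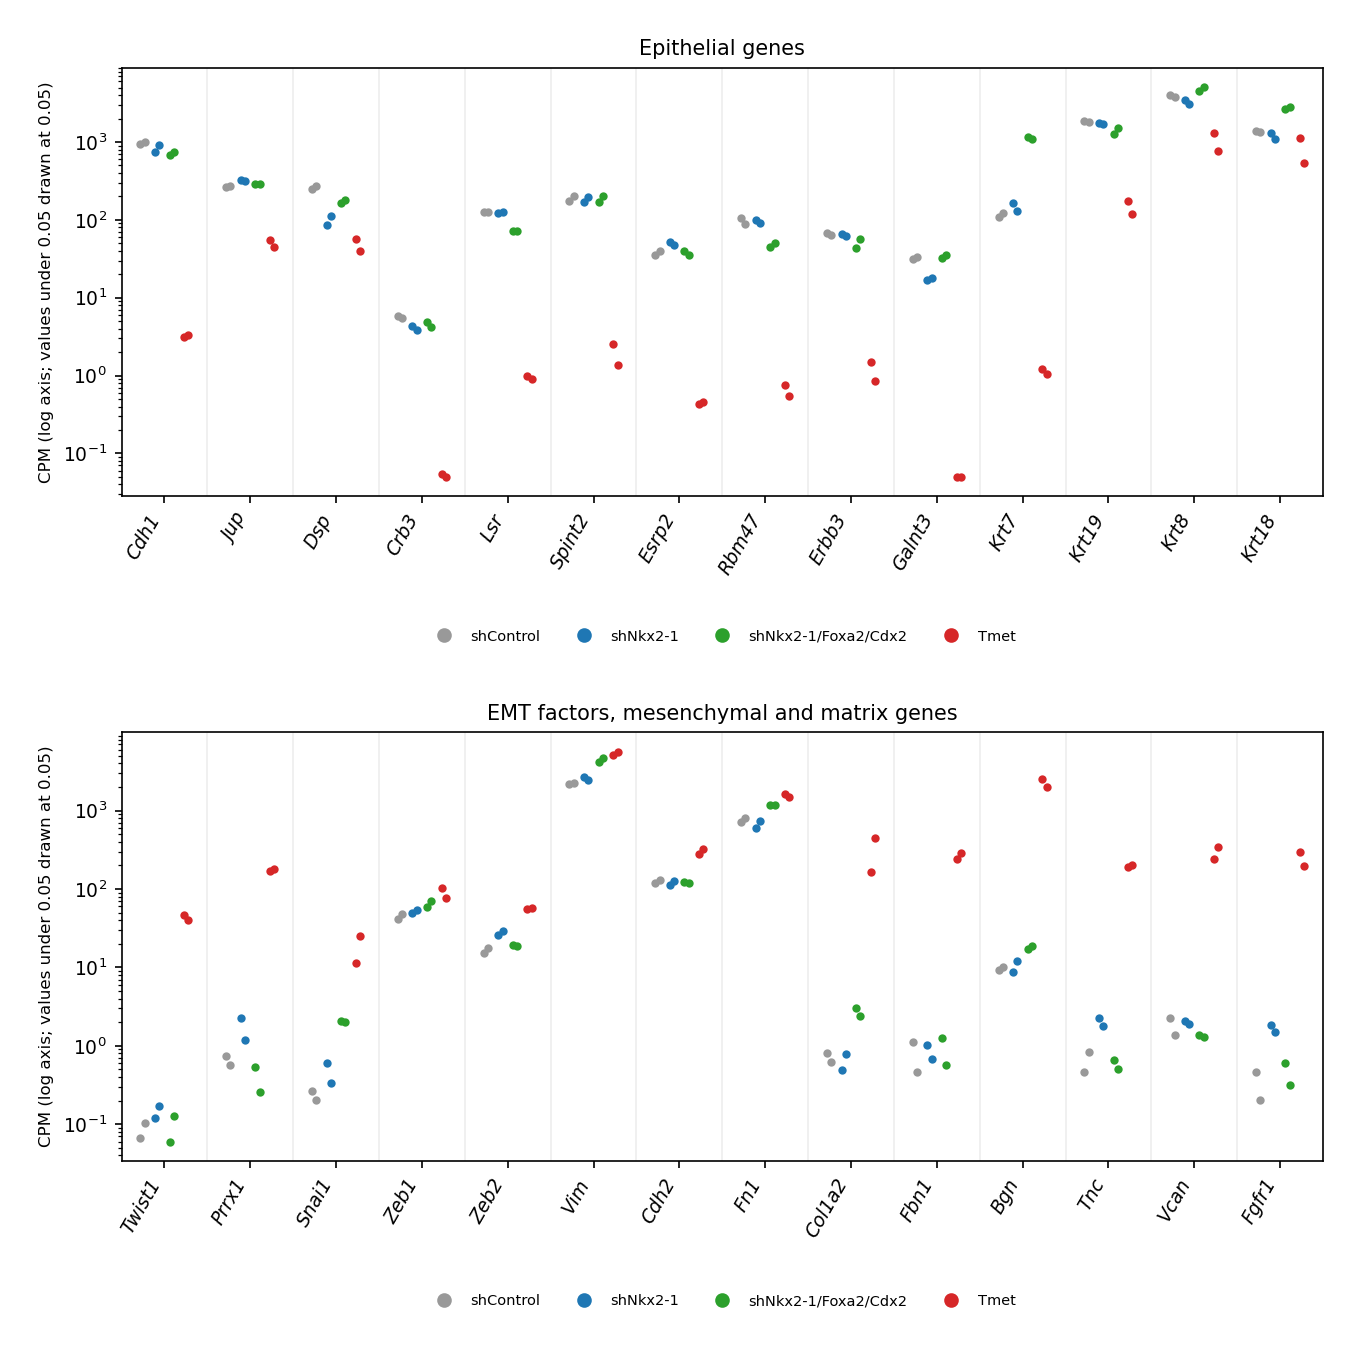
CPM on a log axis of 14 epithelial genes (upper panel) and 14 EMT, mesenchymal and matrix genes (lower panel) in all 8 libraries, 1 point a library, coloured by group. All 14 epithelial genes have their lowest points in Tmet, by a wide margin for Cdh1 and Galnt3 while the groups overlap for Krt18, and the lower panel shows Twist1, Prrx1, Bgn, Tnc, Vcan and Fgfr1 far higher in Tmet than in any Tnonmet library.

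Of 16 EMT transcription factors tested, 9 rose and 5 fell, with a median log2 change of 0.85. Twist1, a basic helix-loop-helix factor of mesoderm, was at 0.122 and 0.169 CPM in shNkx2-1 and at 46.7 and 39.7 CPM in Tmet (log2 change 8.14 ± 0.30, adjusted p = 6.72e-07 by edgeR's quasi-likelihood test). Prrx1, a homeobox factor of limb mesenchyme, was at 2.25 and 1.18 CPM against 169 and 179 CPM, and Snai1, a zinc finger repressor of Cdh1, at 0.608 and 0.338 CPM against 11.4 and 25.4 CPM. These were near the floor or low in all 6 Tnonmet libraries, none of which exceeded 2.25 CPM for any of the 3. Zeb1 and Zeb2, present in both groups, rose less: Zeb1 from 49.3 and 53.9 CPM to 103 and 76.3 CPM (log2 change 0.80), and Zeb2 from 25.8 and 29.1 CPM to 56.1 and 57 CPM (log2 change 1.04). Relatives of these factors were lower in Tmet, with log2 changes of -0.72 for Snai2, -1.76 for Snai3 and -1.04 for Twist2. The call of Snai2 was lost without shNkx2-1 replicate 1 (adjusted p = 0.0576) or replicate 2 (adjusted p = 0.0534), and the count of members called lower was then 3 in each case. Tmet was therefore not higher for every member of the Snail and Twist families.

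Mesenchymal cytoskeleton and surface genes rose in 17 of 25 tested members and fell in 5, with a median log2 change of 1.23. Vim, the intermediate filament of mesenchymal cells, rose from 2650 and 2490 CPM to 5160 and 5640 CPM (log2 change 1.07 ± 0.11). It was thus already present in the knockdown line, and the triple knockdown, at 4200 and 4740 CPM, was not called different from Tmet (log2 difference 0.27, adjusted p = 0.076 by edgeR's quasi-likelihood test). N-cadherin, Cdh2, the adhesion protein of mesenchymal and nerve cells, rose from 114 and 127 CPM to 283 and 326 CPM. Fibronectin, Fn1, rose from 597 and 737 CPM to 1610 and 1510 CPM. Nes, a filament of progenitor cells, rose from 3.95 and 2.54 CPM to 70.3 and 137 CPM. S100a4, a calcium-binding protein often used as an EMT marker, fell from 952 and 1370 CPM to 146 and 406 CPM. Nt5e, a surface nucleotidase, fell from 43.1 and 42.6 CPM to 6.51 and 2.67 CPM.

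Genes of the extracellular matrix were higher in Tmet in most lists. Of 36 tested collagen and collagen-modifying genes, 24 rose and 8 fell (median log2 change 1.47). Of 21 matricellular and proteoglycan genes, 15 rose and 3 fell (median 2.72), with 5 called lower without Tmet replicate 2. Of 21 basement membrane and elastic fibre genes, 11 rose and 6 fell (median 1.14). Bgn, the proteoglycan biglycan, was at 8.69 and 12.1 CPM in shNkx2-1 and at 2550 and 1980 CPM in Tmet (log2 change 7.77 ± 0.23, adjusted p = 2.57e-07 by edgeR's quasi-likelihood test). Tnc, the matrix glycoprotein tenascin C, rose from 2.25 and 1.8 CPM to 193 and 200 CPM. Vcan, the proteoglycan versican, rose from 2.07 and 1.92 CPM to 238 and 346 CPM. Fbn1, fibrillin of elastic microfibrils, rose from 1.03 and 0.676 CPM to 238 and 287 CPM. The Tmet duplicates were close for Tnc and Fbn1 and further apart for Bgn and Vcan. No Tnonmet library came near them for any of these 4 genes. Col1a2 and Col1a1, the chains of type I collagen, differed more between the Tmet duplicates, with 164 and 453 CPM for Col1a2 against 0.486 and 0.789 CPM, and 72.3 and 346 CPM for Col1a1 against 7.54 and 5.52 CPM. Not all matrix genes went up: the laminin chains Lama5 (894 and 916 CPM to 136 and 112 CPM) and Lamb3 (93.8 and 100 CPM to 18.1 and 17.5 CPM) fell, as did Col6a1 (log2 change -3.04) and Col6a2 (log2 change -3.92), chains of type VI collagen. Spp1, osteopontin, rose from 268 and 498 CPM to 3450 and 1600 CPM (log2 change 2.72 ± 0.44), and with shControl at 1060 and 1440 CPM it was lower in the single knockdown than in any other group, though the fall below shControl was not called (adjusted p = 0.077 by edgeR's quasi-likelihood test).

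Markers of other cells are given beside the matrix genes. Of 12 fibroblast and stromal markers 7 were tested, 6 rose and 1 fell, and their summed level was 13.7 and 12.4 CPM in shNkx2-1 and 268 and 826 CPM in Tmet, most of it type I collagen. Pdgfrb, a receptor of pericytes and fibroblasts, had no count in shNkx2-1 and 128 and 98 counts in Tmet, at least 67.6-fold higher. Dcn, decorin, had 30 and 6 counts in Tmet and none in shNkx2-1, and Lum and Tcf21, which mark fibroblasts as well, had none in the 4 libraries. Of 17 leukocyte markers only Cd8a had enough counts to be tested and was not called, with a summed level of 1.94 and 2.14 CPM against 2.57 and 3.48 CPM, and the pan-leukocyte gene Ptprc had 0, 0, 3 and 5 counts. Of 12 endothelial markers Pecam1 had 2 to 4 counts a library, and Flt1 alone was called, lower in Tmet (log2 change -0.54, adjusted p = 0.0436 by edgeR's quasi-likelihood test). That call was lost when any 1 library of the 8 other than Tmet replicate 2 was left out (adjusted p from 0.0561 to 0.179). Of 11 neuroendocrine markers 4 were tested, Insm1 and Uchl1 rose, Ddc fell, and Neurod1 had no count. The log2 change of Insm1 went from 5.13 to 8.32 without shNkx2-1 replicate 1, and that of Ddc from -5.81 to -9.73 without Tmet replicate 2. What part other cells have in the matrix genes was not tested, and fewer cells of a type and less RNA per cell cannot be told apart in such libraries.

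Of 20 integrin genes 16 were tested and all of these were called, 7 higher and 9 lower, with a median log2 change of -0.65. Itgb7, the beta chain known from lymphocytes, rose from 0.243 and 0.282 CPM to 63 and 72.6 CPM. Itga5, the fibronectin receptor chain, rose from 57.5 and 50.1 CPM to 169 and 193 CPM. Itgb4, the chain of hemidesmosomes that binds laminin, fell from 50.4 and 79.3 CPM to 6.34 and 1.71 CPM. Itga1, a collagen receptor chain, fell from 99.5 and 151 CPM to 0.437 and 0.554 CPM. Matrix proteases and their inhibitors rose in 17 of 31 tested members and fell in 5 (median log2 change 1.26), with 8 called lower without Tmet replicate 2. Mmp14, a membrane-bound collagenase, rose from 13.2 and 11.2 CPM to 93.7 and 122 CPM. Timp1, an inhibitor of such enzymes, rose from 7.9 and 5.97 CPM to 110 and 215 CPM. Ctsh, a lysosomal protease made by alveolar cells, fell from 80.9 and 143 CPM to 2.41 and 1.41 CPM. The 20 genes of invadopodia, the actin protrusions that degrade matrix, split into 6 higher, 6 lower and 8 not called. Among them Enah, an actin elongation factor, rose from 11.1 and 10.8 CPM to 65.9 and 79.7 CPM. Fscn1, the actin bundler fascin, rose from 305 and 299 CPM to 694 and 895 CPM. Sh3pxd2a, the scaffold that builds invadopodia, was at 176 and 203 CPM against 182 and 224 CPM and was not called (log2 change 0.10 ± 0.14, adjusted p = 0.561 by edgeR's quasi-likelihood test).

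**Figure D3:**
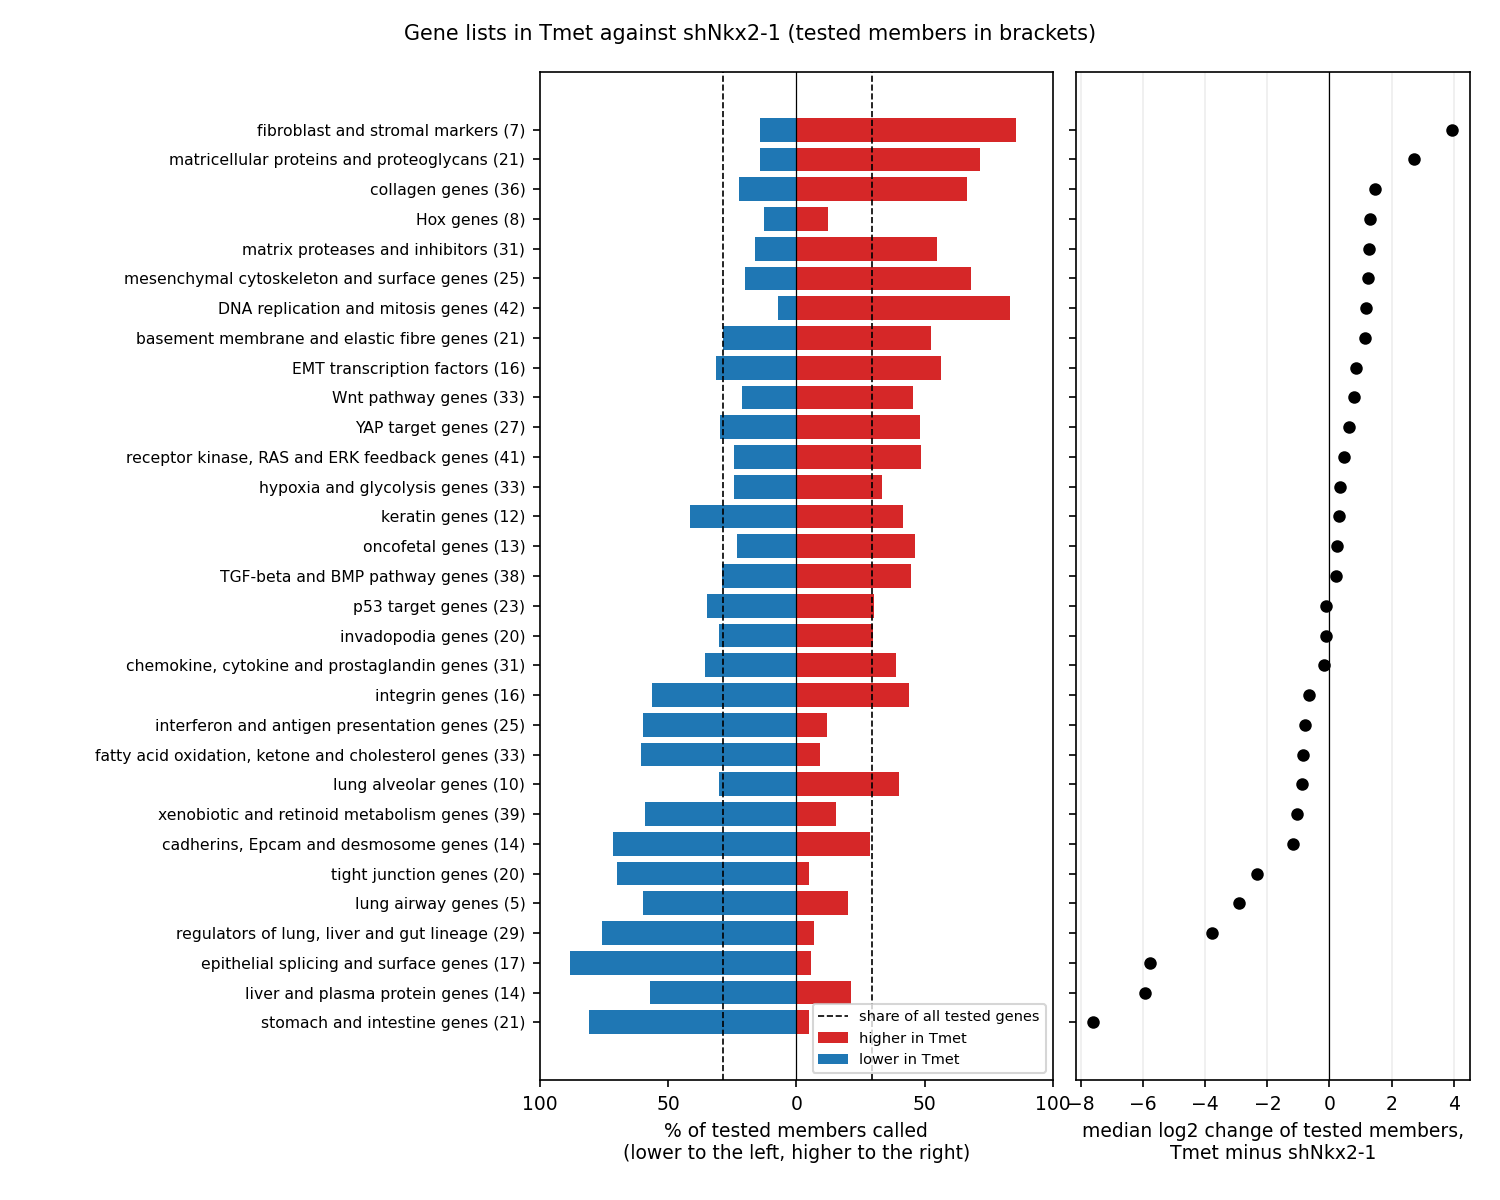
Left, the percent of tested members of each gene list called higher (red) or lower (blue) in Tmet than in shNkx2-1, with dashed lines at the shares of all tested genes, 29.3% and 28.8%. Right, the median log2 change of the tested members; lists with at least 5 tested members are drawn, from stomach and intestine genes (median -7.60) to fibroblast and stromal markers (median 3.95).

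Of 41 receptor kinase, RAS and ERK feedback genes tested, 20 rose and 10 fell, with a median log2 change of 0.48. Fgfr1, a receptor for fibroblast growth factors, rose from 1.82 and 1.52 CPM to 293 and 195 CPM (log2 change 7.19 ± 0.31, adjusted p = 1.33e-06 by edgeR's quasi-likelihood test). Egfr, the epidermal growth factor receptor, rose from 2.25 and 1.69 CPM to 19.5 and 19.8 CPM. The related receptors Erbb3 and Erbb2 fell, Erbb2 from 143 and 148 CPM to 39.8 and 38.3 CPM. Among ligands, Fgf1 fell from 124 and 153 CPM to 1.59 and 1.36 CPM. Hbegf, a ligand of Egfr, rose from 34.1 and 22.1 CPM to 223 and 210 CPM. Targets and brakes of the ERK pathway were divided as well. Fosl1, an AP-1 subunit, rose from 14.3 and 10.8 CPM to 135 and 243 CPM. Dusp5, an ERK phosphatase, rose from 12.8 and 8.79 CPM to 39.4 and 44.3 CPM. Spry1, a feedback inhibitor, fell from 47.9 and 48.7 CPM to 0.601 and 0.605 CPM. Trp53 was at 6.26 and 4.73 CPM against 8.04 and 9.83 CPM (adjusted p = 0.0327 by edgeR's quasi-likelihood test). Its call was lost without shNkx2-1 replicate 2 (adjusted p = 0.206), Tmet replicate 2 (adjusted p = 0.0868) or any 1 of the shControl and triple knockdown libraries (adjusted p from 0.0516 to 0.06). A count summed over a gene does not check a deletion of some of its exons.

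In the TGF-beta and BMP pathway 17 of 38 tested genes rose and 11 fell (median log2 change 0.22). The antagonist Grem1 rose from 0.668 and 1.41 CPM to 30 and 53.1 CPM. The activin chain Inhba rose from 7.96 and 7.27 CPM to 58.9 and 103 CPM. The inhibitory Smad7 rose from 34.5 and 32.3 CPM to 122 and 118 CPM. The receptor Tgfbr2 fell from 299 and 324 CPM to 60.7 and 60.9 CPM. The signal carrier Smad3 fell from 170 and 177 CPM to 84.9 and 77.7 CPM. The ligand Gdf6 fell from 34.5 and 47 CPM to 0.109 and 0.0504 CPM. The groups did not overlap for any of these 6 genes, and members with a like role moved in both directions, as the ligand genes Inhba and Gdf6 did.

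Of the Wnt pathway, 15 of 33 tested genes rose and 7 fell (median log2 change 0.80). Wnt5a had 2 counts in shNkx2-1 and 313 in Tmet, a ratio of 140 with a counting interval of 38.5 to 1160. Wnt10b, another ligand, rose from 0 and 0.113 CPM to 6.34 and 14.4 CPM. Rnf43, which removes Wnt receptors from the surface, fell from 27.6 and 30.3 CPM to 0.164 and 0.454 CPM. Lgr4, a receptor that counters it, fell from 75.8 and 74.2 CPM to 10.5 and 11 CPM. These ligands and surface regulators are examples from the list, and no direction by role is read from them. Of 27 YAP target genes 13 rose and 8 fell (median log2 change 0.64), and 5 fell without shNkx2-1 replicate 1. Axl, a receptor kinase among them, rose from 323 and 534 CPM to 1120 and 1220 CPM.

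DNA replication and mitosis genes were the list with the highest share of rises among those with more than 10 tested members: 35 of 42 rose and 3 fell, with a median log2 change of 1.17. Their summed level was 5440 and 4710 CPM in shNkx2-1 and 8570 and 11300 CPM in Tmet. Top2a, the topoisomerase of dividing cells, rose from 284 and 232 CPM to 679 and 815 CPM. Kif20a, a kinesin of cytokinesis, rose from 126 and 91.6 CPM to 432 and 523 CPM. E2f1, a factor of S-phase genes, rose from 27.5 and 24.7 CPM to 75.1 and 98.4 CPM. Mki67, the Ki-67 antigen, went from 374 and 322 CPM to 463 and 697 CPM (log2 change 0.73 ± 0.19). In Mki67 the gap between the Tmet duplicates was larger than the gap between the nearest libraries of the 2 groups. Its call was lost without shNkx2-1 replicate 2 (adjusted p = 0.0783), and its log2 change was 0.41 without Tmet replicate 2. The G1 cyclin and kinase genes changed in both directions. Cdk6 rose from 25 and 32.2 CPM to 168 and 158 CPM. Its partner Ccnd1 rose from 319 and 395 CPM to 923 and 1110 CPM. Ccnd2, another D-type cyclin, fell from 686 and 673 CPM to 30.2 and 24.2 CPM. Cdkn1b, an inhibitor of such kinases, fell from 150 and 125 CPM to 44.6 and 37.7 CPM. Growth rate was not measured. Genes of the p53 response, on lines labelled as lacking Trp53, were split into 7 higher, 8 lower and 8 not called. The count of higher members was 4 without shNkx2-1 replicate 2 or either triple knockdown library, and the count of lower members was 4 or 5 without either shNkx2-1 or either triple knockdown library.

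Oncofetal genes, active in embryos and again in tumours, were called higher for 6 of 13 tested members and lower for 3. Hmga2, a chromatin protein of embryonic cells, rose from 207 and 143 CPM in shNkx2-1 to 352 and 411 CPM in Tmet (log2 change 1.13 ± 0.17, adjusted p = 8.74e-04 by edgeR's quasi-likelihood test). Tmet stood below the triple knockdown for it, which was at 703 and 658 CPM (log2 difference -0.83, adjusted p = 0.0049), and above shControl at 78.6 and 80.3 CPM. Its relative Hmga1 rose from 12.3 and 14.6 CPM to 86.3 and 107 CPM. Igf2bp3, an RNA-binding protein of fetal tissue, rose from 1.7 and 1.24 CPM to 20.7 and 18.5 CPM. Mycn fell to no count in Tmet from 4.98 and 6.31 CPM. Of 39 Hox genes only 8 had enough counts to be tested, and 1 rose and 1 fell. Between 0 and 11 were called higher as each library was left out in turn, so no count is read from this list.

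Metabolic genes showed the other side of the comparison. Of 33 tested genes of fatty acid oxidation, ketone bodies and cholesterol, 20 fell and 3 rose, with a median log2 change of -0.86. None rose without shNkx2-1 replicate 1, and 5 rose without Tmet replicate 1. Cpt1a, which brings fatty acids into mitochondria, fell from 437 and 432 CPM to 154 and 117 CPM. Hadha, of the beta-oxidation complex, fell from 295 and 305 CPM to 118 and 112 CPM. Pparg, a nuclear receptor of lipid genes, fell from 163 and 154 CPM to 27.6 and 30.8 CPM. Xenobiotic and retinoid genes fell in 23 of 39 tested members and rose in 6 (median log2 change -1.05). The P450 gene Cyp4f14 fell from 69.7 and 107 CPM to 0.0547 and 0.202 CPM, and the retinoid-binding protein Crabp1 rose. Hypoxia and glycolysis genes were more even, with 11 of 33 higher and 8 lower, or 4 lower without shNkx2-1 replicate 2. Slc16a3, a lactate exporter, rose from 0.79 and 1.69 CPM to 83.1 and 51.1 CPM. Hk2, a hexokinase, rose from 33 and 30.3 CPM to 86.8 and 106 CPM, and its relative Hk1 fell (log2 change -1.08). For this list Tmet was called lower than the triple knockdown in 16 members and higher in 5, beside 24.1% and 24% of all tested genes.

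Interferon and antigen presentation genes were lower in 15 of 25 tested members and higher in 3, with a median log2 change of -0.80. Without shNkx2-1 replicate 2, 9 were lower, and the count of higher members was 1 without shNkx2-1 replicate 1 and 8 without Tmet replicate 2. The class I gene H2-K1 fell from 36.8 and 44.3 CPM to 13.3 and 5.7 CPM. Irf7, a factor of the interferon response, fell from 3.65 and 3.89 CPM to 0.492 and 0.202 CPM. B2m, the light chain of class I molecules, was at 155 and 177 CPM against 195 and 151 CPM and was not called. The class I heavy chain genes are close relatives, and how reads were shared among them is uncertain. Of 31 chemokine, cytokine and prostaglandin genes 12 rose and 11 fell. The monocyte attractant Ccl2 rose from 2.61 and 6.25 CPM to 75.2 and 83.1 CPM, a wide separation of the groups. The prostaglandin synthase Ptgs2 rose from 58.5 and 33.6 CPM to 508 and 726 CPM. Its relative Ptgs1 rose from 11.1 and 9.13 CPM to 169 and 188 CPM. Hpgd, which breaks prostaglandins down, fell from 6.26 and 11.5 CPM to 0.109 and 0 CPM. Il1rn, the interleukin 1 antagonist, fell from 141 and 122 CPM to 0.164 and 0.302 CPM.

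Several of the large rises were of genes without a count in shNkx2-1. Odz3, a teneurin of the nervous system, had 0 counts over the shNkx2-1 libraries and 2073 over Tmet, at least 620-fold higher. Gas1, a surface protein that binds Hedgehog ligands, was at least 223-fold higher, with 28.9 and 11 CPM in Tmet, and Trps1, a GATA-type repressor, at least 116-fold higher. None of these genes was above 0.385 CPM in any Tnonmet library. Amd1, an enzyme of polyamine synthesis, also had no count in shNkx2-1 and 19.2 and 35.5 CPM in Tmet. It was at 23.5 and 18.2 CPM in shControl and at 0 in the triple knockdown, and as it has a near-identical copy, Amd2, its value is uncertain. Odc1, the other key enzyme of polyamine synthesis, rose from 169 and 121 CPM to 782 and 1220 CPM. Tm4sf1, a surface protein of endothelium and tumours, rose from 4.5 and 7.44 CPM to 763 and 959 CPM, and was between 4.5 and 8.26 CPM in all Tnonmet libraries.

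Some genes separated Tmet from the single and from the triple knockdown in opposite directions. Those comparisons share the Tmet libraries, so the values are given side by side. Slc4a11, a solute carrier, was at 1.46 and 1.35 CPM in shNkx2-1, 11 and 5.59 CPM in Tmet, and 38.1 and 37.7 CPM in the triple knockdown. Ubash3b, a phosphatase, was at 0.972 and 0.732 CPM, 2.84 and 4.89 CPM, and 15.6 and 14 CPM in the same order. Tmet thus lay between the knockdowns for these genes. Lower than the single and above the triple knockdown were, among others, Ceacam1, an epithelial adhesion protein, with 39.7 and 48.7 CPM, 5.9 and 1.56 CPM, and 0.482 and 1.09 CPM, and Rgl1, an exchange factor for Ral, with 129 and 160 CPM, 54.2 and 46.6 CPM, and 2.95 and 4.3 CPM. As these genes were picked for opposite calls against the knockdowns, the triple minus the single knockdown is given as a description, with log2 differences of 4.75 (Slc4a11), 4.11 (Ubash3b), -5.81 (Ceacam1) and -5.31 (Rgl1).

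Other genes stepped the same way from shControl to the single knockdown and from there to Tmet. Those comparisons share the shNkx2-1 libraries. The ciliary genes Evc and Evc2, which act in Hedgehog signalling, were at 0.133 and 0.0516 CPM (Evc) and 0.267 and 0.0516 CPM (Evc2) in shControl, 1.03 and 0.732 CPM and 1.4 and 1.13 CPM in shNkx2-1, and 20 and 28.3 CPM and 36.5 and 42.2 CPM in Tmet. Evc had no count in the triple knockdown and Evc2 was at 0.121 and 0.0641 CPM. Tiam1, a Rac exchange factor, was at 0.0667 and 0.155 CPM, 0.851 and 0.845 CPM, and 18.9 and 17.7 CPM in the order shControl, shNkx2-1 and Tmet. On the lower side Dio1, a thyroid hormone deiodinase, was at 8.74 and 6.66 CPM, 1.15 and 1.69 CPM, and 0 and 0.0504 CPM, and Muc5b, an airway mucin, at 5.67 and 8.98 CPM, 0.79 and 1.69 CPM, and 0.273 and 0.0504 CPM. The step of Muc5b from the knockdown to Tmet was not called without shNkx2-1 replicate 2 (adjusted p = 0.0618 by edgeR's quasi-likelihood test), and its log2 change went from -2.92 to -4.45 without Tmet replicate 1. For the rises, the step between shControl and the single knockdown stayed at or under 1.4 CPM, and most of the distance was from the knockdown to Tmet.

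**Figure D4:**
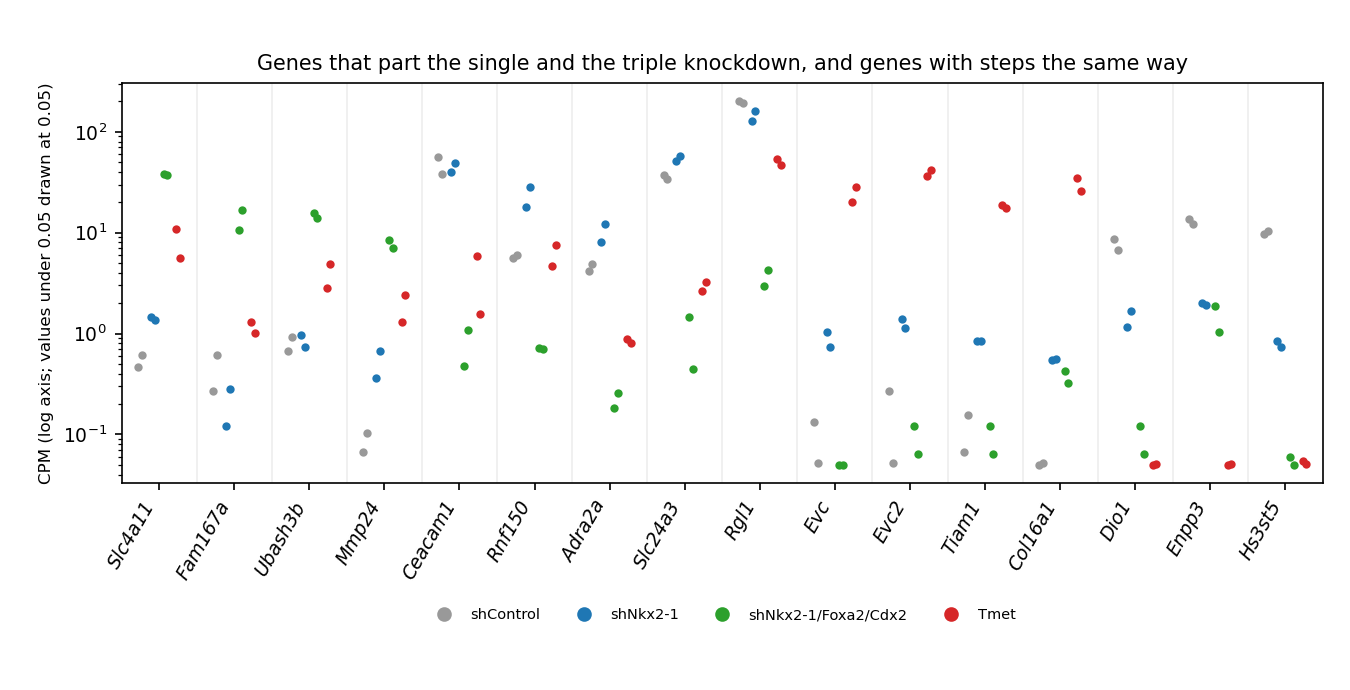
CPM on a log axis, in all 8 libraries, of 4 genes that are higher in Tmet than in shNkx2-1 and lower than in the triple knockdown (Slc4a11 to Mmp24), 5 with the opposite pattern (Ceacam1 to Rgl1) and 7 that step the same way from shControl through shNkx2-1 to Tmet (Evc to Hs3st5). Each point is 1 library; Tmet points lie between the knockdowns in the first 2 sets.

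Genes of the sex chromosomes differed between the lines. Xist, the RNA that silences an X chromosome, was at 1270 and 1490 CPM in shNkx2-1 and at 4.37 and 4.79 CPM in Tmet. The Y-linked genes Ddx3y, Eif2s3y, Kdm5d and Uty were at or below 0.225 CPM in shNkx2-1 and between 47.7 and 125 CPM in Tmet, for example Ddx3y at 105 and 110 CPM. All Tnonmet libraries were alike in this, with Xist at 1270 to 1490 CPM. The lines thus differed in sex-linked expression, and the animal and tumour of origin cannot be told apart from metastatic origin in any gene above.

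Calls were also uneven along the genome. Gene order and chromosome were taken from RefSeq GRCm38, which is not the build of the counts. On chromosome 18, 65.4% of 361 tested genes were called higher, with a median log2 change of 0.83, and on chromosome 13, 49.8% of 500, with a median of 0.50. Chromosomes 7, 10 and 9 leaned the other way, with medians of -0.36, -0.34 and -0.32. The medians of the triple minus the single knockdown, which come from the same line, were between -0.07 and 0.11 on every chromosome. There were 14 runs of at least 8 neighbouring tested genes all called higher, the longest of 14 genes, and 10 such runs called lower, the longest of 13. DNA copy number was not measured.

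On chromosome 5 a pair of short stretches held neighbouring genes that rose, Cdk6 among them. In the first, Cdk6 and Fam133b rose with log2 changes of 2.51 and 3.34, and their neighbour Ankib1 was not called, although it was called lower without Tmet replicate 2 (log2 change -0.36). In the second, Zfp804b had no count in shNkx2-1 and 22.6 and 27.9 CPM in Tmet, and Dbf4, the activator of the replication kinase Cdc7, went from 60.6 and 43.2 CPM to 1870 and 1890 CPM (log2 change 5.18 ± 0.18, adjusted p = 4.93e-07 by edgeR's quasi-likelihood test). Sri, a calcium-binding protein, rose there from 195 and 202 CPM to 1530 and 1310 CPM, and Abcb1b, a drug efflux pump, from 117 and 101 CPM to 915 and 1290 CPM. Abcb1a, its close relative, was not called, with log2 changes of -0.25 without Tmet replicate 1 and 0.99 without Tmet replicate 2, and how reads were shared between the pair is uncertain. Rundc3b and Dmtf1 in the same stretch were not called. Of the 13 tested genes of the second stretch 7 were called higher and 1 lower. In the first stretch 6 of 8 were called higher and 0 lower. On chromosome 3, 16 of 17 consecutive tested genes from Zmat3 to Sox2 were called higher, with a median log2 change of 0.89. Of these 17, 5 rose more than 4-fold, and the last 8, which end in Sox2, had a median of 2.73. Sox2 itself had the largest change, 8.45. The ends of the stretches were set by hand with the values known, so these counts only describe them. Over all tested genes 29.3% were called higher and 28.8% lower.

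**Figure D5:**
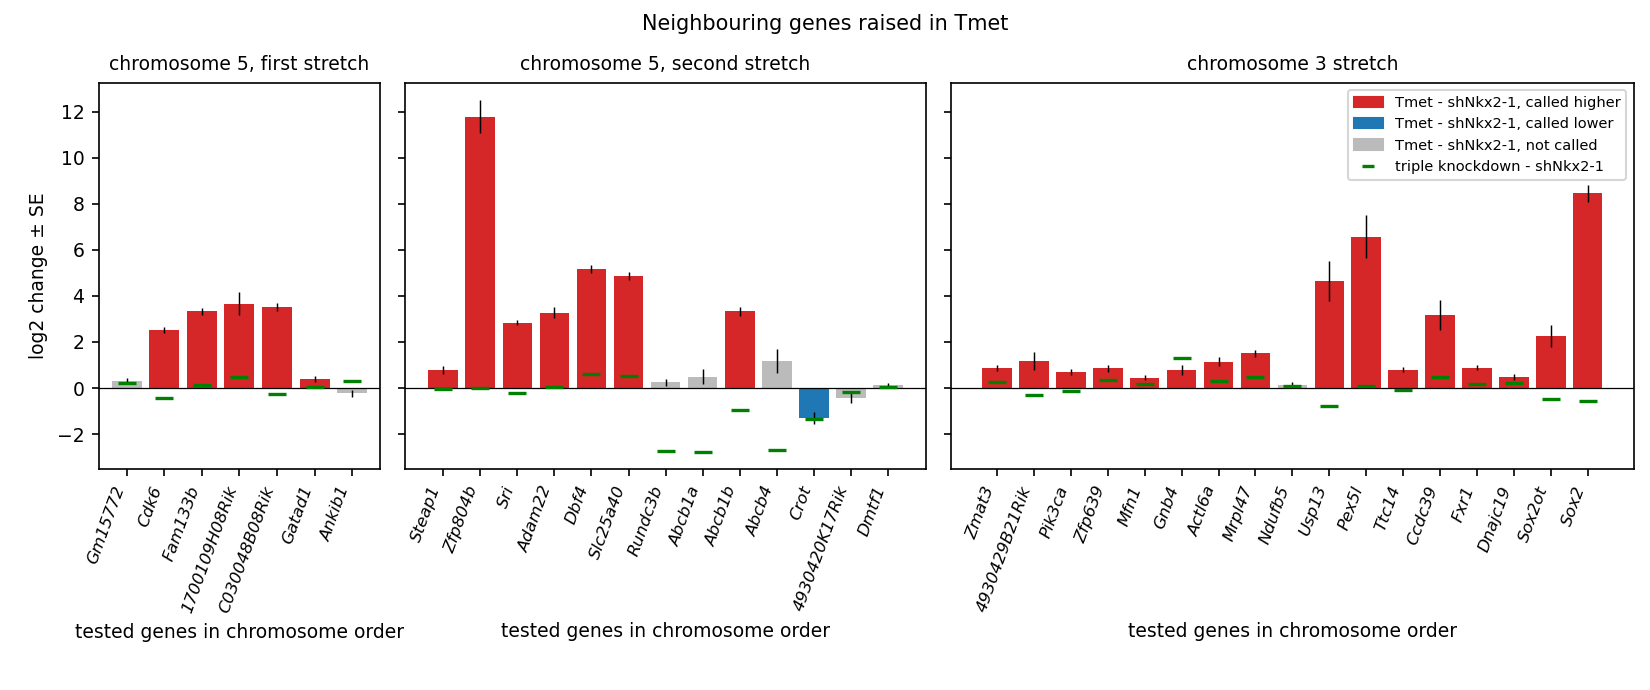
Log2 change of Tmet against shNkx2-1 (bars, with SE) for neighbouring tested genes in chromosome order (1 gene of the first stretch is not drawn) in 2 stretches of chromosome 5 and 1 of chromosome 3; red was called higher, blue lower and grey not called, and green dashes give the triple minus the single knockdown. On chromosome 5 raised bars stand side by side, as Cdk6 and Fam133b do in the first stretch and Dbf4 and Slc25a40 in the second. Zfp804b has the tallest bar, at 11.78, and the bars of Ankib1, Rundc3b and Dmtf1 are near 0. In the chromosome 3 stretch many bars are near 1, 5 show a rise of more than 4-fold, and Sox2 is highest at 8.45.

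The spread between the Tmet duplicates limits some genes more than others. Acta2 and Tagln, smooth muscle actin and its binding protein, were at 7.05 and 79.3 CPM and at 2.13 and 27.5 CPM in the Tmet libraries, against 1.82 and 0.338 CPM and 2.13 and 1.52 CPM in shNkx2-1. Acta2 was called (log2 change 5.34 ± 1.26, adjusted p = 0.00733 by edgeR's quasi-likelihood test) although the duplicates differed more than for most genes. Without Tmet replicate 2 its log2 change was 2.72, and without shNkx2-1 replicate 2 the call was lost (adjusted p = 0.0617). The call of Tagln was lost without Tmet replicate 2 (log2 change 0.23, adjusted p = 0.635) and without either shNkx2-1 library (adjusted p = 0.096 and 0.138). The p53 target Trp53inp1, with 28.6 and 3.38 CPM in Tmet and 53 and 71.2 CPM in shNkx2-1, and Tgfb1i1, a focal adhesion protein, with 2.68 and 25.4 CPM against 0.851 and 1.07 CPM, showed the same kind of gap. The call of Trp53inp1 was lost without either shNkx2-1, shControl or triple knockdown library (adjusted p from 0.0672 to 0.155), and its log2 change, -1.96 over all libraries, was -4.20 without Tmet replicate 1 and -1.12 without Tmet replicate 2. The call of Tgfb1i1 was lost without either shNkx2-1 library (adjusted p = 0.0575 and 0.0532), and its log2 change went from 3.86 to 1.47 without Tmet replicate 2. These 4 are among the called genes with the widest gap between the Tmet libraries, and Acta2 and Tagln count among the mesenchymal genes above.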

How the data were processed

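The deposited values are expected counts (estimated counts per gene, not normalised), which the authors made, per the submitters' processing notes, with tools that include RSEM 1.2.12 and Bowtie 1.0.1 on build mm9. The annotation and the use of strand are not given in the labels or files used here, so overlapping and antisense genes cannot be told apart. Counts were rounded to whole numbers. Of 23224 genes, 13318 passed edgeR's filterByExpr (minimum count 10, minimum total 15). All 8 libraries were fitted in 4 groups with edgeR 4.0.16 (TMM factors, quasi-likelihood test, Benjamini-Hochberg adjustment over all tested genes, threshold 0.05) in R 4.3.3. The fit was also run on simulated data in which few genes changed and all groups had the same spread. That run does not check the fit where most genes differ or where the Tmet duplicates spread more. The SE is the log2 change divided by the root of its F. DESeq2 1.42.0, limma-voom (limma 3.58.1), other filters and left-out libraries were alternatives.

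The comparison, the 34 gene lists and the tests were chosen with earlier results of these data known. Genes named are those listed by name (Nkx2-1, its relatives and EMT markers), the largest called changes and the most abundant genes changed more than 4-fold, up to 5 members a list by p, those called against other groups, and those with the widest gap between Tmet libraries. Of 192 genes named, 129 came from that rule, and 63 (54 of them list members, 9 on sex chromosomes or in chromosome 5 stretches) were chosen after their values were seen. Counting intervals are exact, at the 95% level, and cover counting error only. Chromosomes, gene order and promoters came from RefSeq GRCm38 by symbol. A few genes picked by the rule are not reported here.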

Additional observations from a re-analysis of the deposited data

How the results depend on the processing

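The comparison called 7743 genes, 3905 higher and 3838 lower. When each shNkx2-1 or Tmet library was left out in turn, 5626 to 8973 genes were called, 2709 to 4499 higher and 2917 to 4474 lower, and a group of 1 library was then assumed to vary like the others. A test against a fold of 2 (glmTreat in edgeR) called 2768 genes, 1271 higher and 1497 lower. DESeq2 called 7540 genes, limma-voom 7805, a fit without the filter 7916 and one with only the 4 libraries 5863. The duplicate numbers were not taken to pair the libraries, since no label ties them. Same-numbered shNkx2-1 and Tmet libraries had r = -0.15 between their deviations from the group means, and the other pairs of groups had r from -0.161 to 0.227, above 0.1 for the 3 pairs within the Tnonmet line. With the replicate number as a block 7488 genes were called over all 8 libraries and 5320 over the 4 compared. The crossed pairing, added after seeing the data, called 6476. Leaving out each shControl or triple knockdown library, also added after seeing the data, left 7204 to 7272 calls.

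Of 170 named genes that were called, 13 lost the call under at least 1 alternative other than glmTreat, and those given with values above are described there with the libraries they depend on. With glmTreat counted as well, 26 lost a call. Vim, Zeb1, Zeb2, Fn1 and Hmga2, which rose, and Dsp, Tjp1 and Smad3, which fell, lost it under glmTreat only. The changes of these genes were thus not shown to exceed 2-fold. Mmp24, drawn only in a plot, lost the call without shNkx2-1 replicate 1 (adjusted p = 0.0677) and under the crossed pairing (adjusted p = 0.0535). Without the shControl and triple knockdown libraries Flt1, Snai2, Tagln, Trp53 and Trp53inp1 lost the call, and limma-voom did not call Acta2, Tagln or Tgfb1i1. 3 genes that were not called changed sign as single libraries were left out. The log2 change of Abcb1a ranged from -0.25 (without Tmet replicate 1) to 0.99 (without Tmet replicate 2). That of B2m was -0.05 without shNkx2-1 replicate 1 and ranged from -0.14 to 0.23 without either Tmet library. That of Sh3pxd2a was -0.02 without shNkx2-1 replicate 1 and ranged from -0.06 to 0.24 without either Tmet library. Sftpb was called by limma-voom (adjusted p = 0.0496). Without single libraries some list medians moved. The Hox median was between -0.50 and 2.75, the leukocyte median between 0.64 and 3.01, the airway median between -4.45 and -2.17, and the keratin median -0.75 without Tmet replicate 1. Without Tmet replicate 2 the Wnt and YAP medians were both 0.36. Without Tmet replicate 1 the xenobiotic median was -1.79, and the median of stomach and intestine genes, -6.54, was no longer below that of liver and plasma protein genes, -6.75. The basement membrane median was 1.81 without a shControl or triple knockdown library. The causes were not tested. Genes under about 3 counts a library are below what this depth can compare.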
